A study of Mus musculus with 24 samples.

Results

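Fos, Fosb, Jun, Junb, Egr1, Atf3, Dusp1, Ier2, Zfp36 and Hspa1a, genes that cells switch on early after a stimulus or after heat and protein damage, were followed across mouse macrophage preparations taken from tumours or grown in culture. They were picked by name from the non-control spots of the arrays, and make up 10 of the 24029 named genes measured. Earlier results of these data were known when they were picked. Shares of all genes therefore stand beside their counts for scale only. Each gene had 1 probe, spotted 10 times for Fos and once for the others, and the signal of every probe was well above background on all 23 arrays used.

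The immediate early genes are transcribed without new protein synthesis when MAP kinases or cyclic AMP signalling act on factors already bound at their promoters. FOS and JUN proteins pair into the AP-1 transcription factor, EGR1 is a zinc finger transcription factor, and the phosphatase DUSP1 and the RNA decay factor ZFP36 act as brakes on the same signals. Hspa1a encodes the inducible HSP70 chaperone, which heat shock factor HSF1 turns on when proteins unfold. As background, taking cells out of a tissue is itself a known stimulus of this gene set, and in macrophages lipopolysaccharide induces several of its members.

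The study compared tumour-associated macrophages (TAM) and bone marrow-derived macrophages of mice with and without earlier sepsis. The animals were C57BL/6 males aged 10 weeks, and cells of the post-sepsis groups were taken 14 days after induction of sepsis. TAM were enriched on Percoll and by 1 hour of adhesion, from a tumour that the labels do not name, in a post-sepsis group of 4 arrays and a naive group of 3 used arrays. The 4 culture groups had 4 arrays each, grown from marrow progenitors isolated by adhesion and kept for 7 days in medium with 20% L929 cell supernatant and 10% serum. M0 naive and M0 post-sepsis cultures received nothing more. M1 cultures, from naive mice, received IFN-gamma at 50 ng/mL and LPS at 10 ng/mL on day 3, and M2 cultures, also from naive mice, received IL-10 at 20 ng/mL on day 3. Per the series' design text the arrayed samples were the best of larger sets, chosen for TAM by absorbance ratios of the RNA, and it is not stated which samples shared an experiment, so p-values measure only the spread between these samples.

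Levels below are log2 processed signal relative to the 75th percentile of the same array, so 0 is the level that 75% of probes lie below. The 75th percentile of processed intensity was 236 to 694 on the 23 arrays, which lay on 3 slides, and 56.9% to 69.7% of probes were well above background. Naive TAM replicate 2, which the labels mark as excluded for its RNA, was left out. The labels of TAM and M1 arrays could be checked against marker genes, and those of sepsis could not. Markers of other cells set the TAM arrays apart from the cultures. All 8 pigment cell markers were well above background on every TAM array, where their summed level was 10.70 to 11.13, against 2.82 to 4.58 on the culture arrays, where Tyrp1, Dct and Gpr143 were above background on none. The 8 fibroblast markers summed to 7.70 to 10.06 on TAM arrays and to -0.49 to 1.69 on culture arrays, and the 6 erythroid markers to 4.07 to 9.18 and -2.17 to -0.70. The 13 macrophage markers summed lower on TAM arrays, to 6.18 to 8.58 against 9.87 to 11.11. The macrophage surface receptor Adgre1 averaged -0.67 in naive TAM and 6.86 in naive M0. These markers move with every comparison of TAM with cultures given here, and their part in those comparisons was not tested. In such bulk samples fewer cells of a type and less RNA per cell cannot be told apart. The 8 genes of the M1 state summed to 10.42 to 10.66 on the M1 arrays and to at most 6.39 elsewhere.

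**Figure D1:**
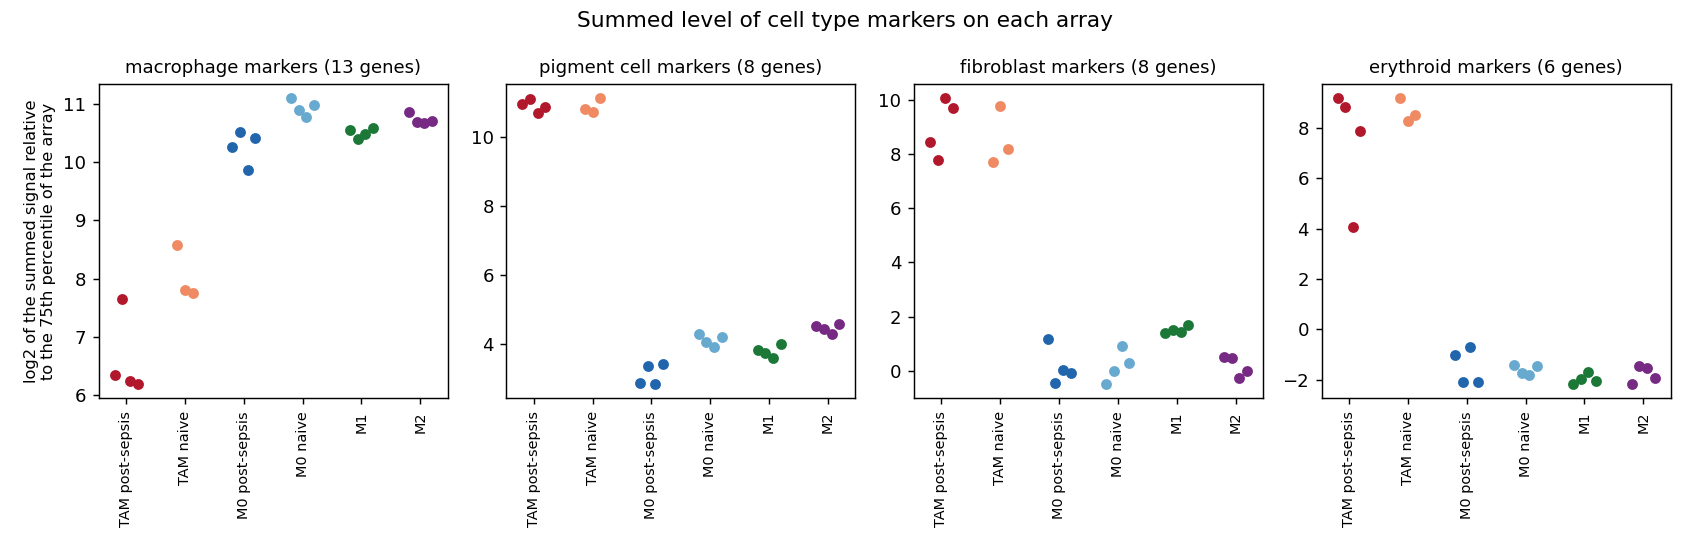
Log2 of the summed signal of the macrophage, pigment cell, fibroblast and erythroid markers relative to the 75th percentile (vertical axes) on each of the 23 arrays (points), by group (horizontal axes). Pigment cell markers lie between 10.70 and 11.13 on the TAM arrays and at or below 4.58 on all culture arrays, and macrophage markers lie lower on the TAM arrays than on the cultures.

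Fos, Dusp1, Zfp36 and Junb had their lowest group mean in M0 post-sepsis, and Junb, Atf3, Dusp1 and Zfp36 their highest in M1. Their levels are given below. The stretches before the start sites of these genes are shown beside that of Hspa1a. RefSeq promoters (GRCm38.p6) were given for 8 of the 10 genes. Capitals mark matches, on either strand, to TGACG (the core of the cyclic AMP response element, CRE), TGACGTCA (the full CRE, which contains that core on both strands), TGANTCA (AP-1), GCGNGGGCG (EGR), GAANNTTC and TTCNNGAA (the heat shock element in both phases) and the CArG box bound by SRF. Each stretch reads 5′ to 3′ on the strand of the gene and ends at the base before the annotated start. Fos is on the plus strand at chr12:85473770-85473889, and the others are on the minus strand, Junb at chr8:84978749-84978868, Atf3 at chr1:191183334-191183453, Dusp1 at chr17:26508473-26508632, Zfp36 at chr7:28379229-28379348 and Hspa1a at chr17:34972157-34972276.
Fos: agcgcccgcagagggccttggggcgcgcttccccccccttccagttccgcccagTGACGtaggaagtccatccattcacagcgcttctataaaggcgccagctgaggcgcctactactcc
Junb: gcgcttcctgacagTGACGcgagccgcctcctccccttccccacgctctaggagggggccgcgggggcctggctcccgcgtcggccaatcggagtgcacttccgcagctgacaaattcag
Atf3: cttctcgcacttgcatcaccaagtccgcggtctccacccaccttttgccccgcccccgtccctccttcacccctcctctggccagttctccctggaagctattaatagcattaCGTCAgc
Dusp1: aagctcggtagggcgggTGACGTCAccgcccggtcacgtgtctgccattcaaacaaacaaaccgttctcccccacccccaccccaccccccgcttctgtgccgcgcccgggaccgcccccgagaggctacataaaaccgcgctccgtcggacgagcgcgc
Zfp36: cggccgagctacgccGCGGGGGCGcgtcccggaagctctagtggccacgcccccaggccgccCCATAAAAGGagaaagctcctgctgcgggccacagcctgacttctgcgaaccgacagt
Hspa1a: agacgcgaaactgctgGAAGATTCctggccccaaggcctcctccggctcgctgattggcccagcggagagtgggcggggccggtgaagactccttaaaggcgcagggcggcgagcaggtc

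Within 250 bases before the start, TGACG was found in 5 of the 8 promoters, those of Fos, Fosb, Junb, Atf3 and Dusp1, and in 17.8% of all 32851 promoters of that length. The Dusp1 match at -143 is part of a full TGACGTCA, a word found in 1.55% of promoters, and another match lies at -191, before the printed stretch. Fos carried TGACG at -66 and, before the printed stretch, at -129. Junb had it at -106, Fosb at -60 and Atf3, on the other strand, at -7. A CArG box, found in 1.47% of promoters, was in that of Zfp36 alone, at -58. EGR words (4.7% of promoters) were in Fosb at -50 and Zfp36 at -105. GAANNTTC (6.69%) was in Hspa1a at -104 and Jun at -128, TTCNNGAA (7.17%) and TGANTCA (6.75%) were in none of the 8, and no match says only that the letters are not in this window.

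**Figure D2:**
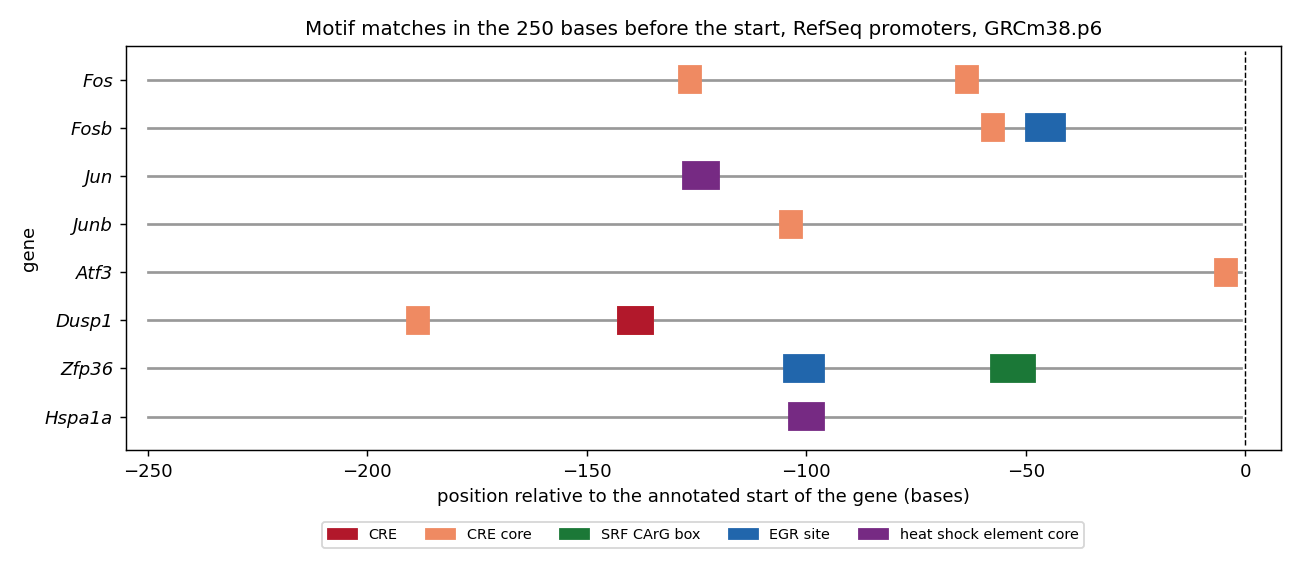
Positions of motif matches (coloured boxes) in the 250 bases before the annotated start (horizontal axis, bases from the start) of the 8 genes with a RefSeq promoter (rows). CRE core matches lie in 5 of the 8 genes, and the box at -143 in Dusp1 is the full CRE, which covers 2 core matches.

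Fosb, a FOS family protein that pairs with JUN, separated tissue from culture by the widest gap. It stood at 3.52, 4.12, 3.41 and 3.53 on the post-sepsis TAM arrays and at 3.50, 5.04 and 3.73 on the naive TAM arrays. The cultures gave -1.60, -1.98, -1.06 and -2.59 in M0 post-sepsis, -1.17, -1.49, -1.58 and -1.77 in M0 naive, -1.99, -1.70, -2.31 and -2.22 in M1, and -1.82, -1.25, -0.38 and -0.74 in M2. Every TAM array was above every culture array, with 3.79 between the lowest TAM and the highest culture value, while each culture group overlapped the next in the order of means.

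Egr1, the EGR family factor, showed the second such gap. Its levels were 3.65, 3.61, 4.76 and 4.36 in post-sepsis TAM and 3.60, 5.24 and 3.47 in naive TAM. In M0 they were -0.59, 0.21, -0.55 and -0.15 post-sepsis and 1.06, 0.84, 0.34 and 0.83 naive, with -1.35, -1.72, -1.59 and -1.61 in M1 and 0.22, -0.22, 0.00 and -0.07 in M2. All TAM arrays were higher than all cultures by at least 2.41. Among the cultures naive M0 was highest without overlapping M2, and M1 was lowest without overlapping any other group.

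Hspa1a, the inducible HSP70, was measured at 1.78, 0.86, 5.0 and 2.62 in post-sepsis TAM and at 1.59, 3.1 and 2.79 in naive TAM. M1 followed at 0.32, 0.27, 0.15 and 0.30, and M2 at -2.16, -2.56, -2.40 and -2.36. M0 was lowest, at -3.42, -3.42, -3.45 and -3.42 post-sepsis and -3.21, -3.55, -3.51 and -3.82 naive. TAM, M1, M2 and M0 formed 4 levels that did not overlap, and the post-sepsis TAM arrays spread more (SD 1.77, n = 4) than those of any other gene of the set in any group. Hspa1b, a near-identical copy of Hspa1a, had no probe under its own name, so signal from the 2 copies cannot be told apart.

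Jun, the central partner of AP-1, ran from 5.82 to 6.90 on TAM arrays and from 3.87 to 5.59 on culture arrays, which left a gap of 0.23. M1 held its lowest levels, 3.87 to 4.62, below those of naive M0. Together with Fosb, Egr1 and Hspa1a this made 4 of 10 genes with all 7 TAM arrays above all 16 culture arrays, and none with all of them below. Over the 32371 genes kept, 12.1% separated in either direction, 5.89% with TAM above and 6.16% with TAM below. With arrays centred on their median the number was 3, as Jun overlapped, and with quantile normalization it was 5, as Fos also separated.

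Fos, the other classic AP-1 subunit, did not separate tissue from culture. It was at 3.43, 3.67, 3.80 and 3.39 in post-sepsis TAM, at 2.89, 4.02 and 2.95 in naive TAM and at 2.95, 2.87, 2.41 and 3.00 in naive M0. M1 gave 1.38, 1.15, 1.15 and 1.56, M2 1.54, 0.71, 1.28 and 1.43, and M0 post-sepsis 0.06, 0.92, -0.38 and 0.89. Naive M0 overlapped naive TAM and stood above the other 3 culture groups, and M0 post-sepsis was lowest on average.

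Dusp1, the phosphatase that switches off JNK and p38, was highest in M1, at 4.33, 4.61, 4.28 and 4.50. TAM followed at 2.87, 2.53, 3.29 and 3.28 post-sepsis and 2.55, 3.93 and 2.60 naive, beside 2.55, 2.52, 2.25 and 2.59 in naive M0. M2 was at 1.68, 1.01, 1.38 and 1.5, and M0 post-sepsis at 0.14, 0.45, -0.27 and 0.38. M1 lay above every other group and M0 post-sepsis below every other group without overlap, while TAM and naive M0 overlapped.

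Zfp36, which speeds the decay of cytokine messages with AU-rich ends, was at 1.97, 0.62, 1.77 and 2.20 in post-sepsis TAM and at 0.84, 3.12 and 1.77 in naive TAM. Naive M0 gave 1.96, 2.38, 1.81 and 2.31, M1 2.48, 2.64, 1.86 and 2.31, and M2 1.82, 1.86, 2.08 and 2.05. M0 post-sepsis was at 0.03, 0.45, -0.42 and 0.46. Those 4 arrays were below all others, and the remaining 5 groups overlapped.

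Atf3, a stress-induced ATF family factor that can repress as well as activate, was highest in M1, at 6.21, 6.01, 6.20 and 6.23, and in M2, at 6.01, 5.87, 5.87 and 5.92. Naive M0 gave 5.27, 4.95, 4.63 and 4.95, and M0 post-sepsis 3.86, 4.71, 3.31 and 4.43. TAM were at 3.65, 3.33, 4.46 and 3.57 post-sepsis and at 2.54, 3.07 and 3.27 naive. Naive TAM lay below every other group, post-sepsis TAM overlapped M0 post-sepsis, and M1 overlapped M2.

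Junb, an AP-1 subunit, was also highest in M1, where it ran from -0.12 to 0.42, followed by M2 from -1.42 to -0.85. TAM, from -3.26 to -1.06, overlapped both M0 groups, from -3.41 to -1.97, and in post-sepsis mice also M2, whereas M1 overlapped no other group. Ier2, an early response nuclear protein, ran from -1.86 to -0.05 on TAM arrays and from -3.20 to -1.64 on culture arrays, and those ranges overlapped.

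**Figure D3:**
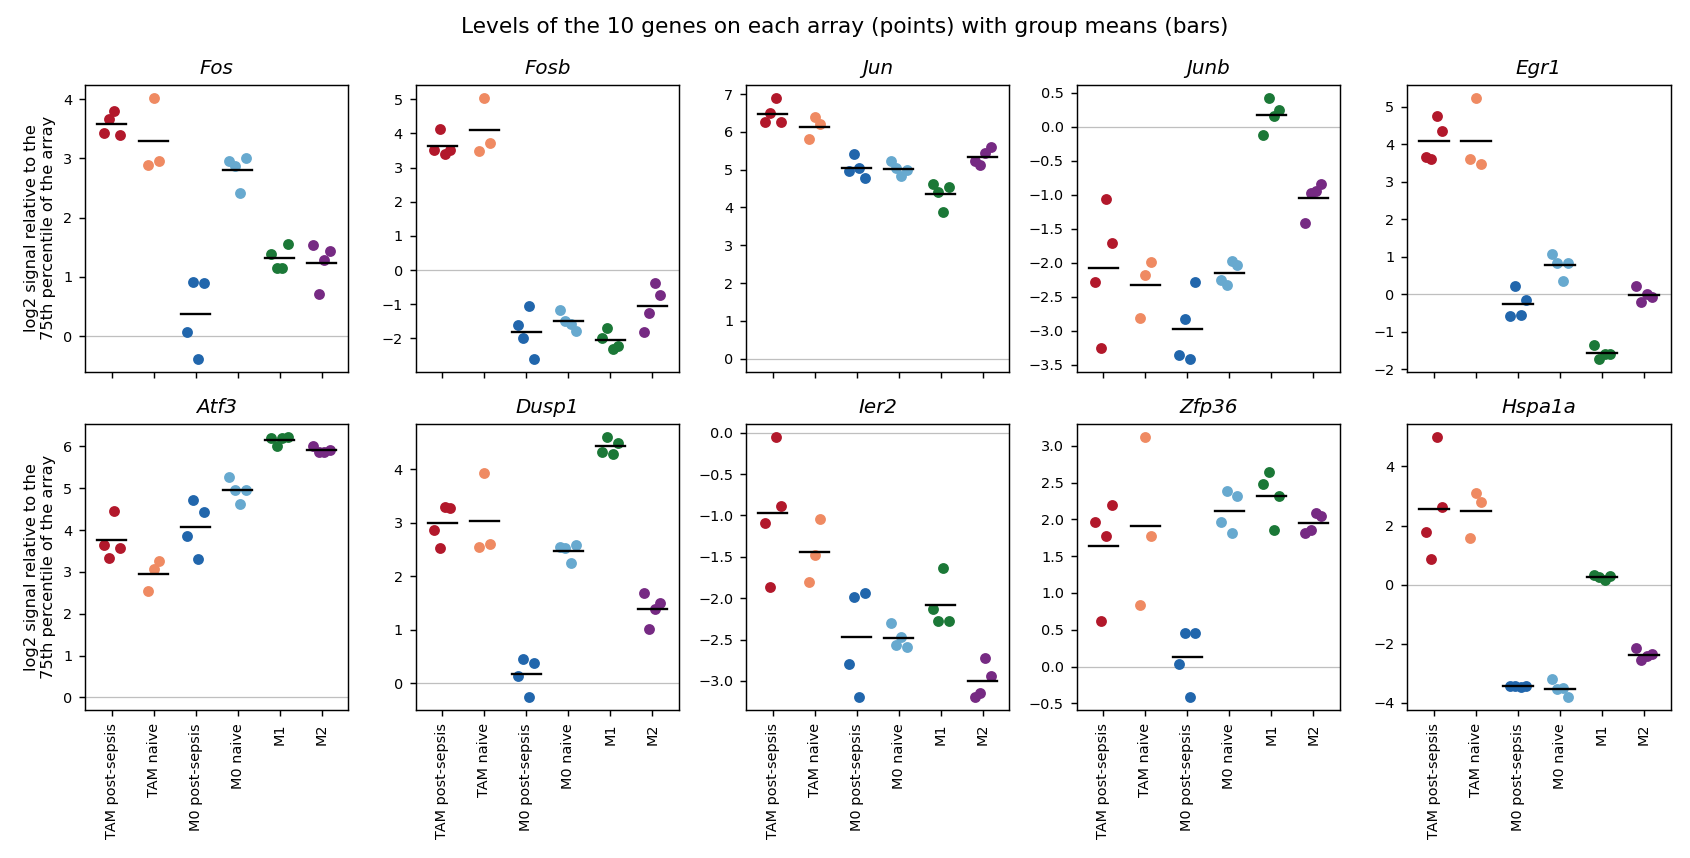
Log2 signal of each gene relative to the 75th percentile of the array (vertical axes, a scale of its own in each panel) on each of the 23 arrays (points) by group, with group means (bars). Fosb, Egr1, Hspa1a and Jun lie higher on all 7 TAM arrays than on all 16 culture arrays. By group mean Atf3, Junb, Dusp1 and Zfp36 are highest in M1, and Fos, Dusp1, Zfp36 and Junb are lowest in M0 post-sepsis.

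Tissue isolation was first set against plain culture in naive mice. In naive TAM Hspa1a was higher than in naive M0 by 6.02 ± 0.58 (log2 difference with its SE, n = 3 and 4, limma adjusted p = 4.0e-08), which is 64.8-fold, and Fosb by 5.59 ± 0.38 (adjusted p = 2.5e-10). Over 18 alternatives the Hspa1a difference ran from 4.69 to 6.47, so its fold depends on the processing. Egr1 was higher by 3.34 ± 0.35 (adjusted p = 1.5e-07), Jun by 1.11 ± 0.22 (adjusted p = 3.9e-04) and Ier2 by 1.04 ± 0.35 (adjusted p = 0.0227). Atf3 was lower, at -1.99 ± 0.29 (adjusted p = 1.1e-05). These are 5 of 10 genes higher and 1 lower, where limma called 35.6% of 30600 genes, 15.1% higher and 20.5% lower. Fos differed by 0.48 ± 0.32 (adjusted p = 0.246), Dusp1 by 0.55 ± 0.29 (adjusted p = 0.147), Junb by -0.18 ± 0.37 and Zfp36 by -0.21 ± 0.41. Within the 3 slides Fosb was higher by 6.53, 5.41 and 4.67 and Hspa1a by 6.65, 6.46 and 4.8. Ier2 lost its call without naive TAM replicate 3 (1.06, adjusted p = 0.0524), naive TAM replicate 4 (0.84, adjusted p = 0.108) or naive M0 replicate 4 (1.00, adjusted p = 0.050), and with median centring, which moved the median of all genes from 0.02 to -0.33 (Ier2 0.69, adjusted p = 0.281, and Jun 0.76, adjusted p = 0.0936). With quantile normalization Ier2 was also not called (0.80, adjusted p = 0.176), while Fos (0.84, adjusted p = 0.0233) and Dusp1 (0.90, adjusted p = 0.0125) were. Nor was Ier2 called with naive TAM replicate 2 included (0.68, adjusted p = 0.162).

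The same step in post-sepsis mice gave more differences. Hspa1a was higher in post-sepsis TAM than in post-sepsis M0 by 5.99 ± 0.54 (adjusted p = 1.2e-08), Fosb by 5.45 ± 0.35 (adjusted p = 8.5e-11) and Egr1 by 4.36 ± 0.33 (adjusted p = 7.7e-10). These SEs rest on 1 spread per gene over all 6 groups, so they do not reflect a wider spread in TAM alone. For Hspa1a the SD was 1.77 in post-sepsis TAM and 0.01 in post-sepsis M0. Its limma adjusted p was at most 3.9e-04 in 18 alternatives, where its difference ran from 4.59 to 6.56. Each of these also uses 1 spread per gene for its groups, so none of them takes the unequal SDs into account. Fos was higher by 3.20 ± 0.29 (adjusted p = 1.6e-08) and Dusp1 by 2.82 ± 0.27 (adjusted p = 2.6e-08), beside smaller differences of Ier2 (1.51 ± 0.32), Zfp36 (1.51 ± 0.38), Jun (1.43 ± 0.21) and Junb (0.89 ± 0.34, adjusted p = 0.0417). In all 9 of 10 genes were higher and none lower, where limma called 44.1% of 29871 genes, 16.4% higher and 27.7% lower, and the median of all genes was -0.36. Atf3 differed by -0.32 ± 0.27 (adjusted p = 0.343). Within slides 2 and 3 Hspa1a was higher by 8.43 and 4.28, Fosb by 4.74 and 6.40 and Egr1 by 5.33 and 3.57. The differences were also unequal for Ier2 (2.95 and 0.10) and Zfp36 (1.96 and 0.17). Junb (2.32 and -0.70) and Atf3 (0.88 and -1.23) changed sign. The Junb call was lost with the slide as a block (0.81, adjusted p = 0.0821) and without any 1 of post-sepsis TAM replicates 1, 3 and 4 (0.96, 0.55 and 0.77) or post-sepsis M0 replicates 1 and 3 (0.76 and 0.75). The 2 steps have no array in common.

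**Figure D4:**
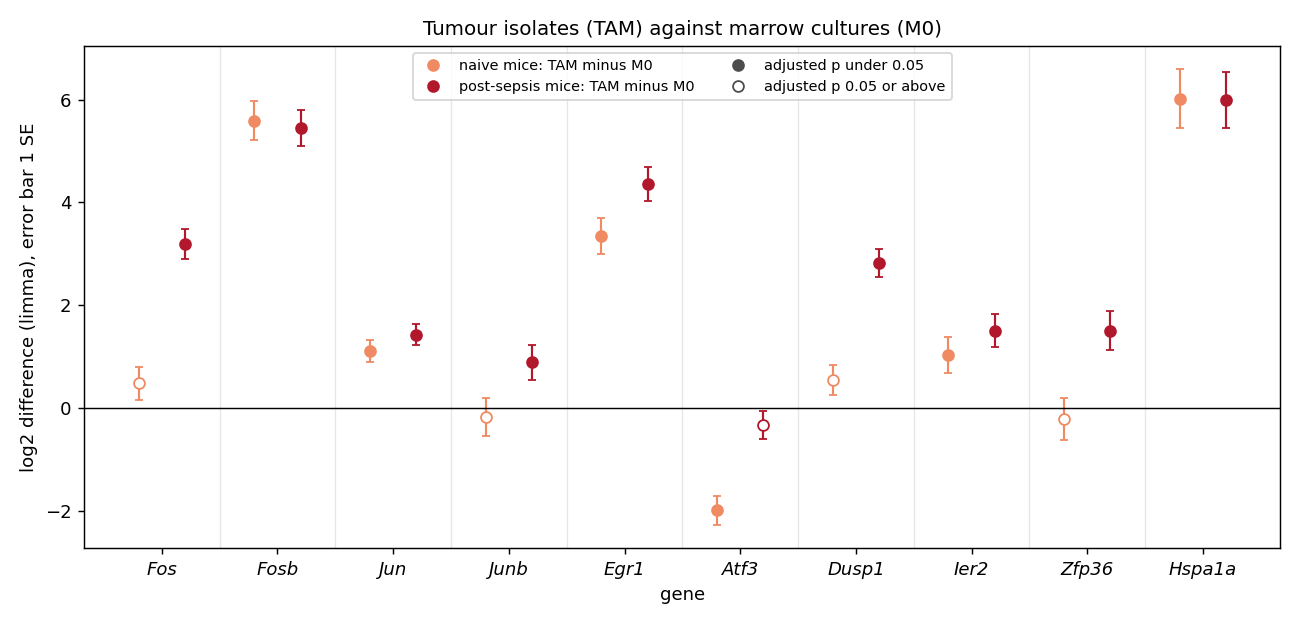
Log2 difference of TAM minus M0 (vertical axis, error bars 1 SE of the limma fit) for each gene, in naive mice (3 and 4 arrays) and in post-sepsis mice (4 and 4 arrays), with filled points where the adjusted p was under 0.05. Hspa1a and Fosb are the highest points of both series, Atf3 is below 0 in both, and Fos and Dusp1 lie at 3.20 and 2.82 in post-sepsis mice and at 0.48 and 0.55 in naive mice.

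Against the polarized cultures the same naive TAM arrays gave another mix, and these comparisons share them with the one against M0. Relative to M1, 5 of 10 genes were higher and 3 lower (43.5% of 29385 genes called, 20.5% higher and 23% lower). Fosb was higher by 6.15 ± 0.38, Egr1 by 5.67 ± 0.35, Hspa1a by 2.23 ± 0.58, Fos by 1.98 ± 0.31 and Jun by 1.77 ± 0.22, whereas Atf3 (-3.20 ± 0.29), Junb (-2.51 ± 0.37) and Dusp1 (-1.40 ± 0.29) were lower, with adjusted p of at most 0.00326. Zfp36 differed by -0.42 ± 0.41 and was called without naive TAM replicate 3 (-1.02, adjusted p = 0.0367). Relative to M2, 7 were higher and 2 lower (40.2% of 29717 genes called, 18.5% higher and 21.6% lower). Fosb was higher by 5.14 ± 0.38, Hspa1a by 4.86 ± 0.58 and Egr1 by 4.12 ± 0.35, with smaller differences of Fos (2.05 ± 0.31), Dusp1 (1.63 ± 0.29), Ier2 (1.56 ± 0.34) and Jun (0.79 ± 0.22). Zfp36 differed by -0.04 ± 0.41, and Atf3 was again lower, at -2.96 ± 0.29. Junb was lower by -1.28 ± 0.37, a call lost without naive TAM replicate 1 (-1.03, adjusted p = 0.0657). With median centring Jun (0.34, adjusted p = 0.454) and Ier2 (1.11, adjusted p = 0.0787) were not called. With naive TAM replicate 2 included Fos (0.92, adjusted p = 0.263), Dusp1 (0.68, adjusted p = 0.330) and Jun (0.60, adjusted p = 0.0706) were not called against M2, nor were Fos (0.84, adjusted p = 0.283) and Hspa1a (1.25, adjusted p = 0.158) against M1.

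Stimulation within culture was then compared with naive M0. In M1 cultures Hspa1a rose by 3.78 ± 0.15 (adjusted p = 8.5e-11), a 13.8-fold rise, Junb by 2.32 ± 0.24 (adjusted p = 1.6e-06), Dusp1 by 1.95 ± 0.19 (adjusted p = 1.2e-06) and Atf3 by 1.21 ± 0.25 (adjusted p = 0.00135). The Hspa1a rise started from a low naive M0 mean of -3.52 and ran from 2.62 to 3.93 over 18 alternatives, so its fold depends on the processing. Egr1 fell, at -2.33 ± 0.21 (adjusted p = 4.0e-07), and so did Fos, at -1.50 ± 0.29 (adjusted p = 7.3e-04), and Jun, at -0.66 ± 0.20 (adjusted p = 0.0211). With 4 of 10 genes higher and 3 lower, the set was split, where 27.7% of 29510 genes were called, 13.1% higher and 14.7% lower. All 10 genes kept 1 sign within the 3 slides. The Jun call was lost without naive M0 replicate 1 (-0.59, adjusted p = 0.0566) or M1 replicate 3 (-0.50, adjusted p = 0.0787). Jun was also not called with median centring (-0.52, adjusted p = 0.370) or without the filter on dim probes (-0.66, adjusted p = 0.0502). Fosb (-0.55 ± 0.33), Ier2 (0.40 ± 0.26) and Zfp36 (0.21 ± 0.23) did not pass.

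In M2 cultures, compared with the same naive M0 arrays, Hspa1a rose by 1.15 ± 0.15 (adjusted p = 1.1e-04), Junb by 1.10 ± 0.24 (adjusted p = 0.00628) and Atf3 by 0.97 ± 0.25 (adjusted p = 0.0181). The Hspa1a rise ran from 0.57 to 1.26 over 18 alternatives. Fos fell, at -1.57 ± 0.29 (adjusted p = 0.00162), as did Dusp1, at -1.08 ± 0.20 (adjusted p = 0.00148), and Egr1, at -0.79 ± 0.21 (adjusted p = 0.0223). These 3 higher and 3 lower genes stand beside 11.9% of 29695 genes called, 4.88% higher and 7.05% lower. The Egr1 call was lost without any 1 of naive M0 replicates 1, 2 and 4 or M2 replicates 2, 3 and 4, with differences between -0.79 and -0.69 and adjusted p between 0.0535 and 0.0695. Egr1 passed in 10 and Junb in 16 of 18 alternatives. With median centring Hspa1a was the 1 gene still called.

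Earlier sepsis was compared in cultured M0. Post-sepsis and naive M0 differed by -2.43 ± 0.29 for Fos (adjusted p = 3.3e-05), by -2.30 ± 0.20 for Dusp1 (adjusted p = 1.6e-06) and by -1.99 ± 0.23 for Zfp36 (adjusted p = 3.0e-05), lower after sepsis in all 3. This comparison too uses the naive M0 arrays. Egr1 (-1.04 ± 0.21, adjusted p = 0.00343), Atf3 (-0.87 ± 0.25, adjusted p = 0.0316) and Junb (-0.82 ± 0.24, adjusted p = 0.0350) were lower by less. None of the 10 genes was higher and 6 were lower, where 11.9% of 29643 genes were called, 5.99% higher and 5.91% lower. With median centring, and with only the compared groups in the fit, Fos, Dusp1 and Zfp36 were the 3 genes still called. Within slides 2 and 3 Fos differed by -2.86 and -2.04, Dusp1 by -2.49 and -2.13, and Zfp36 by -2.26 and -1.50. The Atf3 call was lost without post-sepsis M0 replicate 1 or 3 or naive M0 replicate 1, 2 or 4 (-0.87 to -0.62, adjusted p 0.0683 to 0.0840). The Junb call was lost without post-sepsis M0 replicate 1 or 3 or naive M0 replicate 2, 3 or 4 (-0.88 to -0.68, adjusted p 0.0529 to 0.106). Atf3 passed in 9 and Junb in 8 of 18 alternatives. Jun (0.03 ± 0.20), Ier2 (0.00 ± 0.26), Hspa1a (0.10 ± 0.16) and Fosb (-0.30 ± 0.33) did not pass. The macrophage markers were also lower in post-sepsis M0, where 8 of 13 fell and their summed level was 9.87 to 10.53 against 10.79 to 11.11, and 5 of 9 neutrophil markers (7.42 to 8.70 against 8.24 to 9.75) and 3 of 5 tested genes of the M1 state (3.44 to 4.02 against 4.78 to 5.35) were lower as well. Their part in these differences was not tested.

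**Figure D5:**
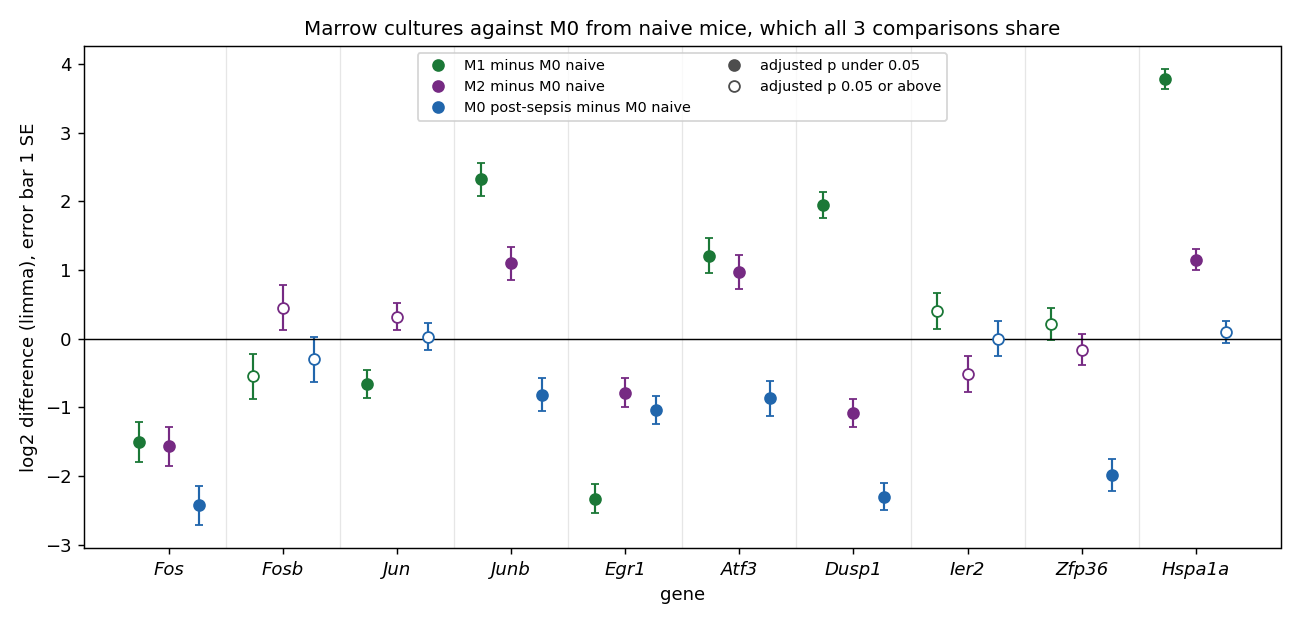
Log2 difference of M1, M2 and post-sepsis M0 cultures from naive M0 cultures (vertical axis, error bars 1 SE of the limma fit, 4 arrays a group) for each gene, with filled points where the adjusted p was under 0.05. Hspa1a, Junb, Dusp1 and Atf3 lie above 0 in M1, and Fos lies below 0 in all 3 comparisons, which share the naive M0 arrays.

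In TAM the sepsis comparison called none of the 10 genes and 0% of 28911 genes with limma, while 1 of the 10 (Atf3) and 10964 of all genes had an unadjusted p under 0.05. Without post-sepsis TAM replicate 2 the count over all genes went from 0 to 9831 of 28773 (2169 higher and 7662 lower), with 0 of the 10 among them, and it stayed at 0 without any other 1 array. Atf3 was 0.80 ± 0.33 higher in post-sepsis TAM (95% interval 0.04 to 1.55, adjusted p = 0.123). With the slide as a block Atf3 passed (0.81, adjusted p = 0.0262), as did 34.9% of all genes (8.14% higher and 26.8% lower), and the 3 slides gave 0.55, 1.19 and 0.79. With the replicate number as a block it also passed (0.94, adjusted p = 0.0478), as did 9903 of all genes. Fos was at 0.28 (interval -0.46 to 1.02), Dusp1 at -0.04 (-0.95 to 0.88), Egr1 at -0.01 (-1.18 to 1.16), Zfp36 at -0.27 (-1.64 to 1.10) and Hspa1a at 0.07 (-2.08 to 2.22), the widest interval of the 10 genes. Between slides 8 of the 10 genes changed sign.

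The sepsis difference in TAM was tested against that in M0 in 1 model over the 23 arrays. It was greater by 2.71 ± 0.43 for Fos (adjusted p = 7.9e-04), by 2.27 ± 0.39 for Dusp1 (adjusted p = 0.00174) and by 1.67 ± 0.40 for Atf3 (adjusted p = 0.0175), so 3 of 10 genes were higher and none lower, where 5.93% of 31748 genes were called, 3.59% higher and 2.34% lower. The median of all genes was -0.32. Without post-sepsis TAM replicate 2 the count over all genes went from 1884 to 5888, of which 2299 were higher and 3589 lower. It was 4243 without post-sepsis M0 replicate 4, 3641 without post-sepsis M0 replicate 2 and 3149 without naive TAM replicate 4. It was 948 and 1213 without naive TAM replicates 1 and 3, 1123 without post-sepsis TAM replicate 3, 1100 without post-sepsis M0 replicate 1, and 1230 and 1046 without naive M0 replicates 2 and 4. For Fos the term sets 0.28 in TAM against -2.43 in M0, for Dusp1 -0.04 against -2.30 and for Atf3 0.80 against -0.87. Zfp36 stood at 1.72 ± 0.56 (adjusted p = 0.0721) and was called without post-sepsis TAM replicate 2 (2.06, adjusted p = 0.0154), naive TAM replicate 3 (2.32, adjusted p = 0.0106) or post-sepsis M0 replicate 4 (1.83, adjusted p = 0.0471). Junb was called without post-sepsis TAM replicate 2 (1.47, adjusted p = 0.0264) and Egr1 without naive TAM replicate 3 (1.60, adjusted p = 0.0284), which brought the count to 5 in both cases. The Atf3 call was lost without naive TAM replicate 1 (1.46, adjusted p = 0.0662), with only the compared groups in the fit (1.67, adjusted p = 0.108) and with naive TAM replicate 2 included (2.70, adjusted p = 0.0777). Markers of other cells moved in the same term, where 5 of 10 tested T and NK cell markers, 3 of 8 dendritic cell, 3 of 5 mast cell and 2 of 7 B cell markers were lower and 4 of 13 macrophage markers higher. Within TAM the summed B cell markers lay at 3.23 to 5.42 on naive and -0.03 to 2.44 on post-sepsis arrays. T and NK cell markers lay at 4.27 to 5.10 and 3.34 to 4.24, and mast cell markers at 3.85 to 4.15 and 1.96 to 3.60. Macrophage markers too lay lower after sepsis, at 7.75 to 8.58 on naive and 6.18 to 7.65 on post-sepsis TAM arrays. None of these lists overlapped between the groups. Neutrophil markers did overlap, at 8.98 to 9.99 on naive and 7.38 to 9.18 on post-sepsis TAM arrays. So did the fibroblast, endothelial, pigment cell and erythroid markers, and the dendritic cell markers met at 8.67. How many of all genes part these 2 small groups was not counted. In TAM limma called 0 of 12 tested macrophage markers, and 4 lower with the slide as a block. In post-sepsis M0 8 of 13 were lower. The part of all these markers in the TAM sepsis values and in this term was not tested.

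Within the TAM groups the genes varied together by array. Post-sepsis replicate 3 was the highest array of its group for 8 of 10 genes and naive replicate 3 for 7, and post-sepsis replicate 2 was the lowest for 7 and naive replicate 1 for 9. The fibroblast markers had the same highest and lowest arrays, with summed levels of 10.06 and 9.76 on both replicates 3 and of 7.78 on post-sepsis replicate 2 and 7.70 on naive replicate 1. Erythroid markers were lowest on post-sepsis replicate 3, at 4.07, and macrophage markers were highest in their groups on post-sepsis replicate 2, at 7.65, and on naive replicate 1, at 8.58. Their part in the spread was not tested. The median SD of the 10 genes was 0.52 in post-sepsis TAM and 0.71 in naive TAM, 0.47 in M0 post-sepsis, and 0.25, 0.21 and 0.22 in M0 naive, M1 and M2. Over the genes well above background on at least 12 of 23 arrays it was 0.37, 0.39, 0.57, 0.32, 0.25 and 0.30 in the same order. Beside these the 10 genes had the higher median in TAM and the lower one in every culture group.

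Across the 23 arrays, which fall into groups, 33 of the 45 pairs of genes correlated above 0, with a median Pearson r of 0.47 and a range of -0.74 to 0.94. The closest pair was Fosb with Egr1 (r = 0.94, and 0.18 with group means removed), and the most opposed was Egr1 with Atf3 (r = -0.74). With group means removed, Egr1 and Dusp1 moved from 0.15 to 0.88, Egr1 and Atf3 were at 0.58 and Atf3 and Ier2 moved from -0.42 to 0.84, while Dusp1 and Zfp36 were at 0.75 across arrays and 0.83 within groups. Pairs within an array share its scaling. Of 16644 other named genes, those whose pattern was most like the mean standardized profile of the 10 were C1ra (r = 0.93), Smad7, Pik3ip1 and Zfp608 (0.92 each), Arsg (0.91), Adamts14 (0.90), and Cfl2, Htra1, Btg2 and Kdm6b (0.89 each). That mean does not stand for all 10 genes. Atf3 and Junb correlated with the mean of the other genes of the set at -0.30 and 0.18, and the rest at 0.47 (Jun) to 0.83 (Hspa1a).

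Relatives of the 10 genes were read from lists of the same pathways, by the same limma fits, and those named with a difference had adjusted p of at most 0.0404. Their counts stand beside the shares of all genes called, which were 15.1% higher and 20.5% lower in naive TAM against M0, 16.4% and 27.7% in post-sepsis TAM against M0, 13.1% and 14.7% in M1, 4.88% and 7.05% in M2, and 5.99% and 5.91% in post-sepsis M0 against naive M0. Other early response genes were mostly higher in naive TAM than in naive M0, with 17 of 25 tested higher, 3 lower and a median of 1.81, against 0.02 over all genes. Ccn2 and Ccn1, secreted matricellular proteins, were higher by 7.44 ± 0.51 and 5.11 ± 0.43, with Ccn2 above background on 1 of 4 naive M0 arrays, and Ier5 was lower, at -1.03 ± 0.38. In post-sepsis mice 15 of 25 were higher and none lower. In M1 against naive M0, 12 of 23 were higher and 7 lower (median 0.65, against -0.12 over all genes), among them Ier3 (3.84 ± 0.21) and the zinc finger factor Klf4 (3.76 ± 0.27) above and Egr2 (-4.19 ± 0.25) and Myc (-3.79 ± 0.36, above background on 1 of 4 M1 arrays) below.

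Of the other AP-1 and CREB/ATF factors, 8 of 17 were higher and 5 lower in naive TAM than in naive M0, with Maff (4.01 ± 0.31) and the FOS relative Fosl1 (3.32 ± 0.63, above background on 1 of 4 naive M0 arrays) above and Atf7 (-6.49 ± 0.27) and Batf2 (-2.89 ± 0.24) below. In M1 13 of the 17 were higher and 2 lower, among them Batf2 (4.23 ± 0.23) and Fosl1 (4.01 ± 0.50, again against 1 of 4 naive M0 arrays above background). Early feedback inhibitors, brakes like Dusp1 and Zfp36, were higher in naive TAM in 14 of 20 and lower in 2. Among them Spry1 and Spry4, inhibitors of receptor tyrosine kinase signalling, were on no naive M0 array above background and are given as at least 54.1-fold and at least 4.58-fold higher, a bound set by the dimmest signal above background on those arrays. Zfp36l2 and Zfp36l1, relatives of Zfp36, were lower, at -1.86 ± 0.25 and -0.81 ± 0.26. In M1 10 of 17 inhibitors rose and 2 fell, led by the cytokine signalling inhibitor Socs3 at 6.09 ± 0.22, and in M0 post-sepsis 5 of 18 were higher and 6 lower than in naive M0.

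Other heat shock response genes were higher in naive TAM in 16 of 25 and lower in 2, with a median of 0.92, and in post-sepsis TAM in 19 and 2. The small heat shock proteins Cryab (5.32 ± 0.29) and Hspb1 (5.24 ± 1.16) had the largest rises in naive TAM, and the HSP90 cochaperones Ahsa1 (-1.13 ± 0.24) and Chordc1 (-0.96 ± 0.28) were lower. In M1, where Hspa1a rose 13.8-fold, 6 of 24 (25.0%) were higher and 4 (16.7%) lower, with a median of 0.13, against 13.1% and 14.7% of all genes. The HSP110 family genes Hspa4l (2.46 ± 0.20) and Hsph1 (1.72 ± 0.25) were among the former, and Ahsa1 (-1.45 ± 0.22) and the constitutive Hspa8 (-0.74 ± 0.14) among the latter. Against naive M0, post-sepsis M0 had 4 of 24 higher and none lower.

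Of the upstream kinases and factors 1 of 21 was higher (Map2k6, 1.91 ± 0.30) and 8 were lower in naive TAM, against 15.1% and 20.5% of all genes, among them Rps6ka1 (-2.59 ± 0.22) and the SRF co-activator Mrtfa (-2.09 ± 0.20). In M1 5 were higher and 3 lower, with Map2k1 at 2.06 ± 0.33. Messages that ZFP36 is known to bind were higher in naive TAM in 9 of 14 and lower in none, Il6 by at least 235-fold, and in M1 11 of 13 were higher, Il6 by at least 978-fold and Ptgs2 by 10.75 ± 0.43 (above background on 1 of 4 naive M0 arrays), with Ccl4 lower at -1.66 ± 0.17. Zfp36 itself did not pass in either comparison. In post-sepsis TAM against M0 8 of 14 were higher and 4 lower, and in M2 4 of 12 were higher and 8 lower. In post-sepsis M0, where Zfp36 was lower than in naive M0, 3 of 11 were higher and 3 lower, with a median of 0.05. The arrays measure the Zfp36 message and not its protein, and the part of ZFP36 in these levels was not tested.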

How the data were processed

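RNA of each sample was labelled with Cy3 and hybridised to 1-colour Agilent mouse arrays. Per the file headers the authors' spot intensity values came from Agilent Feature Extraction 10.7.3.1, background-subtracted and detrended within each array but not scaled between arrays, with probe annotation on mm9, while the submitters' processing notes name version 12.5. Another deposited value table, whose columns matched other samples' scanner files when checked, was not used.

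From the 59305 non-control spots, outlier-flagged spots were left out, spots of 1 probe averaged, and log2 processed intensity taken minus the array's 75th percentile. Names came from RefSeq by accession for 27656 probes, symbol for 3401, synonym for 321 and the file for 1775, and 22528 stayed unnamed. The brightest probe stood for a gene. A gene was kept where at least 3 arrays of either compared group had it well above background. The test was lmFit and eBayes of limma 3.58.1 (R 4.3.3), two-sided, with Benjamini-Hochberg adjustment over all genes kept and a threshold of 0.05, and was first tested on simulated data. TAM against cultures and the difference of sepsis differences used all 6 groups (23 arrays), comparisons among cultures the 16 culture arrays, and sepsis in TAM its 7 arrays. The number of arrays limits the precision.

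The 10 genes, the lists and the markers were chosen with earlier results of these data known. From each list, named genes were the up to 2 largest called differences in each direction in naive TAM or M1 against naive M0. A result that this rule would name is not reported here. Alternatives were normexp background (offset 50), median centring, quantile normalization, other probe filters and flags, mean over probes, fewer groups in the fit, slide or replicate number as a block, each array left out, and the excluded array included. Deviations of same-numbered arrays correlated above 0.1 in every pair for naive TAM and M2 alone (r 0.14 to 0.34), against 0.04 to 0.69 for M1 and naive M0, and the labels give no shared source.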

Additional observations from a re-analysis of the deposited data

Results flagged for a closer look

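Atf3 in M1 replicate 2 was at 6.01, apart from the other 3 M1 arrays at 6.20 to 6.23, a gap that made up 0.88 of the range of the group. It was the 1 such array among 50 sets of a gene and a group of 4, where chance gives about 2.50, and all 4 values exceeded those of naive M0.

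The difference between post-sepsis and naive cells was itself different in TAM and in M0 for 3 genes, as tested by the limma term for the difference of differences. That term was 2.71 for Fos (adjusted p = 7.9e-04), 2.27 for Dusp1 (adjusted p = 0.00174) and 1.67 for Atf3 (adjusted p = 0.0175, and 0.0662 to 0.108 in the 3 fits named in the report that lose the call). On slides 2 and 3 it was 3.71 and 2.82 for Fos, 3.17 and 2.11 for Dusp1, and 2.40 and 1.49 for Atf3.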

How the results depend on the processing

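Of 97 alternative counts of called or separated genes 92 stayed within 1.5 times, and of 75 with 1 array left out 73 did. With median centring M2 against naive M0 had 1 gene called (6 in the reported analysis) and post-sepsis against naive M0 had 3 (6), as it had with only the compared groups in the fit, 3. Sepsis in TAM had 1 called with the slide block and 1 with the replicate block (Atf3, against 0). The TAM against M0 difference of sepsis differences had 2 to 5 called with 1 array left out, 5 without post-sepsis TAM replicate 2 or naive TAM replicate 3. The replicate block changed no other count of called genes, and for naive TAM against M2 it kept 9. The causes were not tested.

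Leaving aside within-slide values of genes that were not called, 32 values turned sign, 1 of a called gene. Genes of mixed sign between slides numbered 3 in naive TAM against M0, 2 in post-sepsis TAM against M0, 1 against M1, 1 against M2, 0 in M1, 3 in M2 and 4 in post-sepsis M0 against naive M0, 8 for sepsis in TAM and 4 in the difference of sepsis differences. In naive TAM against M0 the 32 included Junb 0.01 (normexp), Zfp36 0.03 (quantile), and Fos -0.65 and Dusp1 -0.40 with naive TAM replicate 2 included. Junb in post-sepsis TAM against M0 was -0.70 within slide 3, the called gene. Zfp36 in naive TAM against M2 was 0.21 (quantile) and 0.06 (slide block). In post-sepsis against naive M0, Jun was -0.04 (normexp), -0.07 (median centring) and -0.01 (quantile), Ier2 -0.09 (median centring), -0.18 (quantile) and -0.08 (slide block), and Hspa1a -0.08 (quantile). For sepsis in TAM, Egr1 was 0.04 (normexp), 0.55 (median centring), 0.15 (replicate block) and 0.60 (replicate 2 included), Dusp1 0.02, 0.52, 0.12 and 0.92 under the same settings, Zfp36 0.29 (median centring), 0.07 (replicate block) and 0.60 (replicate 2 included), Fosb 0.11 (median centring) and Hspa1a -0.18 (quantile). In the difference of sepsis differences, Fosb was 0.51 (median centring) and 0.17 (replicate 2 included), and Hspa1a 0.63 (median centring), 0.10 (replicate block) and 0.96 (replicate 2 included).

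With 1 array left out, differences that were not called and turned sign ran from -0.35 to 0.06 (Junb) and -0.81 to 0.33 (Zfp36) in naive TAM against M0, and for Zfp36 from -1.02 to 0.12 against M1 and -0.65 to 0.49 against M2. In M0 after sepsis they ran from -0.09 to 0.12 (Jun), -0.18 to 0.24 (Ier2) and 0.00 to 0.20 (Hspa1a). For sepsis in TAM they ran from -0.33 to 0.56 (Egr1), -0.27 to 0.42 (Dusp1), -0.81 to 0.33 (Zfp36), -0.09 to 0.64 (Junb), -0.74 to 0.64 (Hspa1a) and -0.74 to 0.03 (Fosb), and in the difference of sepsis differences from -0.84 to 0.54 (Hspa1a) and -0.44 to 0.33 (Fosb).

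Over all genes, median centring moved the share of calls that were higher from 42.4% to 29.4% in naive TAM against M0, 37.2% to 50.3% in post-sepsis TAM against M0, 47.1% to 29.7% and 46.1% to 28.5% in naive TAM against M1 and M2, 40.9% to 51.8% in M2 against M0, and 60.5% to 86.4% (71.3% with quantile) in the difference of sepsis differences. Counts of called genes went from 3542 to 1474 (M2 against M0) and 3528 to 1305 (M0 after sepsis, 1633 with only the compared groups). Post-sepsis TAM against M0 went from 13185 to 7429 with only the compared groups, and sepsis in TAM from 0 to 10092 (slide block) and 9903 (replicate block). The difference of sepsis differences went from 1884 to 869 (median centring), 3133 (quantile), 515 (only the compared groups) and 759 (replicate 2 included).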

Other observations

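Naive TAM replicate 2, which entered fits only as the named alternative, had a 75th percentile of 49.2 and 42.4% of probes well above background. On it Jun stood at 5.38, Fosb at 2.85 and Egr1 at 1.66, all below the lowest of the other naive TAM arrays. Fos was at -1.25, Dusp1 at -0.77 and Atf3 at -1.14. Hspa1a (-1.45), Zfp36 (-1.58), Ier2 (-2.88) and Junb (-3.17) were not well above background there.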
